A study of Homo sapiens with 6 samples.

Results

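The genes described are 10 members of the immediate early response and of the factors that control it: EGR1, EGR2, EGR3, IER2, IER3, IER5, ZFP36, NR4A1, SRF and MYC. They were taken by name, and all 10 were found among the 36601 genes of the deposited count table. In aggregate cells 7 of them fell (EGR1, EGR2, IER2, IER3, IER5, ZFP36 and NR4A1), MYC rose, SRF did not pass the test and EGR3 had too few reads to be tested. Changes were common in this comparison: 75.4% of the 17839 genes tested changed, 37.6% falling and 37.8% rising.

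Immediate early genes are switched on by growth factors, serum or stress within minutes, without new protein synthesis. Many are driven by SRF (serum response factor), which sits on CArG boxes in their promoters and works with ternary complex factors downstream of the ERK kinase or with actin-regulated MRTF coactivators. Their mRNAs are short-lived, many carry AU-rich elements, and their products are largely transcription factors or, like ZFP36, feedback regulators that remove such mRNAs. The class was first worked out in cultured fibroblasts given serum, and osteosarcoma lines in serum-containing medium also carry basal levels of these mRNAs.

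The study asked what TDP-43 aggregation seeded from outside does to the RNA of human cells. All 6 libraries came from U2OS, an osteosarcoma line, that expressed from a doxycycline-induced transgene TDP-43-mNLS-Clover, that is, TDP-43 with a defective nuclear localization signal and a fluorescent tag. The aggregate cells, 3 libraries, had been given 50 nM fibril seeds of the TDP-43 low-complexity domain (LCD) with lipofectamine, and were sorted after 48 hours for Clover aggregates. The diffuse cells, 3 libraries, had been mock transfected with the protein's storage buffer and were sorted at the same time for diffuse Clover. Each library came from its own transfection, and all 6 carry the same batch label. Seeding, aggregation and sort gate coincide, so their effects cannot be told apart. Whether the line is 1 clone is not given in the sources used here.

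Libraries held 41528336 to 46863013 gene counts in aggregate cells and 40279084 to 43091428 in diffuse cells, and the 3 counts taken as the limit of detection correspond to 0.064 to 0.0745 CPM (counts per 1e6 counts of the library). TARDBP, the gene of TDP-43, had 2534, 2590.0 and 2617 CPM in aggregate cells, against 7368, 7267 and 7685 CPM in diffuse cells. These counts do not separate the endogenous gene from the TDP-43 transgene. The difference, to 0.347 of the diffuse level, coincides with seeding, aggregation and sort gate, and its part in the results was not tested. Summed CPM of 6 U2OS and mesenchymal markers was 3561 to 3871 in aggregate cells and 5814 to 6049 in diffuse cells. VIM, COL1A1 and SPARC were high in every library. Of the 6, VIM, COL1A1 and COL1A2 fell, RUNX2 rose, and SPARC and CDH2 did not pass the test. COL1A1 had 1516 ± 103 CPM in aggregate cells and 3211 ± 77.0 CPM in diffuse cells. COL1A2, a low one, had 7.355 ± 0.722 CPM in aggregate cells and 24.6 ± 1.15 CPM in diffuse cells. RUNX2 had 51.4 ± 1.62 CPM in aggregate cells and 34.7 ± 1.32 CPM in diffuse cells. Markers of epithelial, endothelial and blood cells each summed to under 20 CPM in every library; among the 6 blood markers 5 stayed under 1 CPM, and CD68 had 13.95 ± 1.72 CPM in aggregate cells and 2.64 ± 0.312 CPM in diffuse cells. Neuronal markers, mostly TUBB3, summed to 167.0 to 172.3 CPM in aggregate cells and 213.5 to 234.8 CPM in diffuse cells and went both ways. RBFOX3 had 20.1 ± 1.49 CPM in aggregate cells and 2.79 ± 0.159 CPM in diffuse cells. SYT1 had 9.15 ± 0.936 CPM in aggregate cells and 29.25 ± 0.760 CPM in diffuse cells. SNAP25 had 15.7 ± 0.203 CPM in aggregate cells and 25.7 ± 0.747 CPM in diffuse cells. STMN2 had 0.206 ± 0.0828 CPM in aggregate cells and 2.56 ± 0.330 CPM in diffuse cells. With 13, 7 and 7 counts in aggregate cells, STMN2 passed the filter on low counts through the diffuse libraries alone. The part of these marker differences in the results below was not tested. Values below are TMM-scaled CPM, given as mean ± SD over n = 3 libraries a group where no single values stand; log2 fold changes are aggregates over diffuse, from edgeR's quasi-likelihood test with Benjamini-Hochberg adjustment over 17839 genes and a threshold of 0.05. In these bulk samples fewer cells of a kind and less RNA per cell cannot be told apart.

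Promoters are shown because SRF acts on them directly. RefSeq (GRCh38.p14) windows from 250 bases before to 50 bases after the start were searched for 7 of the 10 members, 11 windows in all. EGR3, IER3 and MYC were not searched. The CArG box was searched on both strands as CC, a run of 6 A or T, and GG; capitals mark it. EGR1, EGR2 and SRF itself each have it in 1 of their windows.
EGR1, chr5:138465229-138465528, plus strand: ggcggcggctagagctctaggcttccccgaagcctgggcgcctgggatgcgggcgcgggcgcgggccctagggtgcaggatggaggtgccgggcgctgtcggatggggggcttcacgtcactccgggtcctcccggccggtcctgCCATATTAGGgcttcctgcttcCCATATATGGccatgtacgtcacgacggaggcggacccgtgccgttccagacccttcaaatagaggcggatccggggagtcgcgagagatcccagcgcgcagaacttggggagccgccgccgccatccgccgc
EGR2, chr10:62816317-62816616, minus strand: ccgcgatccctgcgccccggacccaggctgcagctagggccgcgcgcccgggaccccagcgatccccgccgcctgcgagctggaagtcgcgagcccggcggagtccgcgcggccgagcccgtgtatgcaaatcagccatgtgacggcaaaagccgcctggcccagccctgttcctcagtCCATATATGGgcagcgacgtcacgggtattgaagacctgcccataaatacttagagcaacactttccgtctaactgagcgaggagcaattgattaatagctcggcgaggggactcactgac
SRF, chr6:43171019-43171318, plus strand: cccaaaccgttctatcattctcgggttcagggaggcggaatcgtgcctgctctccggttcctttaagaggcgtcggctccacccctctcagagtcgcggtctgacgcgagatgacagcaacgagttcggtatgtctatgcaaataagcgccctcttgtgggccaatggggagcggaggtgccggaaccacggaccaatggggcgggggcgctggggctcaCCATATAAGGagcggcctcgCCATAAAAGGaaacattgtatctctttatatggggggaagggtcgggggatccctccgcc

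EGR1 holds 2 boxes, whose first bases lie at -105 and -83 from the start, and SRF holds 2, at -30 and -10. The single box of EGR2 lies at -71, in the window of the start at 62816366, while the windows of its other 2 starts hold none. No box stood in the windows of IER2, IER5, ZFP36 and NR4A1. The windows of NR4A1 belong to the starts at 52022832 and 52037715. Its annotated start at 52051402, of the transcripts NR4A1-201 and NR4A1-204, had no window and was not searched. The box occurs in 454 of all 35116 windows, or 1.29%. The shorter letters CGTCA, the core of the cyclic AMP response element, occurred on either strand 2 times each in the windows of EGR1 and EGR2 shown and 1 time each in those of SRF and IER2, against 24.6% of all windows with at least 1. The full TGACGTCA, which contains CGTCA on both strands, was in no window searched for a member and in 1.85% of all windows. Among tested genes with a CArG box in a window the median log2 fold change was -0.10 over 194 genes, and 45.9% of them fell; without a box it was 0.004 over 12069 genes, and 39.9% fell. The 3 members with the box did not move together, as the levels below show.

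The EGR factors are zinc-finger proteins that bind GC-rich sites. EGR1 (ENSG00000120738.7, chromosome 5, 138465490 to 138469315, plus strand), the best known of them, had 278, 268 and 295 CPM in aggregate cells 1, 2 and 3, against 505, 583 and 557 CPM in diffuse cells 1, 2 and 3. Every aggregate library lay below every diffuse one, and diffuse library 1 was the lowest of its group. EGR1 fell by 0.97 on the log2 scale (SE 0.042, 95% interval -1.05 to -0.89, edgeR quasi-likelihood test, adjusted p = 2.29e-24), to 0.511 of the diffuse level. Of all tested genes, 37.6% fell, and 8.65% had a lower log2 fold change than EGR1.

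EGR2 (ENSG00000122877.15, chromosome 10, 62811996 to 62919900, minus strand), which is known for its part in myelination and hindbrain segmentation, had 259, 270 and 233 counts in aggregate cells, against 1207, 1363 and 1241 counts in diffuse cells. On the CPM scale these were 6.0, 5.74 and 5.62 in aggregate cells and 30.2, 32.45 and 29.1 in diffuse cells. The groups lay far apart and each was tight. With a log2 fold change of -2.40 (SE 0.063, 95% interval -2.53 to -2.28, edgeR quasi-likelihood test, adjusted p = 6.00e-55), it had the lowest of the 9 tested members, 0.189 of the diffuse level, and 0.633% of tested genes stood lower. The deposited cluster of EGR2 holds alternative introns near its start, not the main intron, and had 2, 3 and 4 reads in aggregate cells and 27, 27 and 41 in diffuse cells, below the minimum of 10 per library for a test.

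EGR3 (ENSG00000179388.8, chromosome 8, 22687659 to 22693302, minus strand), a close relative of EGR1 that is itself an EGR target in several tissues, had 1, 2 and 4 counts in aggregate cells, against 4, 12 and 6 counts in diffuse cells. With 7 counts summed over the aggregate libraries and 22 over the diffuse ones, the gene did not pass the filter on low counts. In aggregate cells 1 and 2 it was under the 3 counts taken as the limit of detection, and aggregate library 3 equalled diffuse library 1 in counts. Without the filter edgeR's log2 fold change was -1.68 (SE 0.61, adjusted p = 0.0143), while DESeq2 gave -1.72 (SE 0.9, adjusted p = 0.1). A gene on the opposite strand that shares 164 exon bases with it, AC055854.1, had 17, 9 and 24 counts in aggregate cells and 3, 7 and 7 in diffuse cells; the strand setting of the counting is not given by the sources, so the origin of reads in the shared bases is uncertain.

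The remaining family member, EGR4, listed among the paralogs, had 0.767 ± 0.0814 CPM in aggregate cells and 3.19 ± 0.2235 CPM in diffuse cells (log2 fold change -2.05, SE 0.153, adjusted p = 2.20e-22). NAB1 and NAB2 bind EGR proteins and repress them, and NAB2 is itself an EGR target. NAB1 fell, with 61.2 ± 2.56 CPM in aggregate cells and 70.5 ± 2.32 CPM in diffuse cells (log2 fold change -0.21, SE 0.040, adjusted p = 2.69e-06). NAB2 rose, with 57.8 ± 2.28 CPM in aggregate cells and 39.75 ± 1.34 CPM in diffuse cells (log2 fold change 0.54, SE 0.042, adjusted p = 4.50e-21). Both corepressors were thus well expressed in both groups, and they moved in opposite directions; the fall of NAB1 did not pass a test against a fold of 1.2.

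The orphan nuclear receptor NR4A1 (ENSG00000123358.19, chromosome 12, 52022832 to 52059507, plus strand), also known as NUR77, had 1345, 1560 and 1194 counts in aggregate cells, against 3611, 4319 and 3767 counts in diffuse cells. In CPM it had 31.2, 33.1 and 28.8 in aggregate cells and 90.5, 103 and 88.3 in diffuse cells. The lowest diffuse library was above every aggregate library. NR4A1 fell by 1.59 on the log2 scale (SE 0.054, 95% interval -1.70 to -1.49, edgeR quasi-likelihood test, adjusted p = 1.05e-19), to 0.331 of the diffuse level. Both of its relatives fell as well. NR4A2 had 10.4 ± 0.911 CPM in aggregate cells and 67.5 ± 6.17 CPM in diffuse cells (log2 fold change -2.70, SE 0.063, adjusted p = 8.30e-26), and NR4A3 had 8.46 ± 0.7415 CPM in aggregate cells and 15.9 ± 1.40 CPM in diffuse cells (log2 fold change -0.91, SE 0.068, adjusted p = 5.62e-21).

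**Figure D1:**
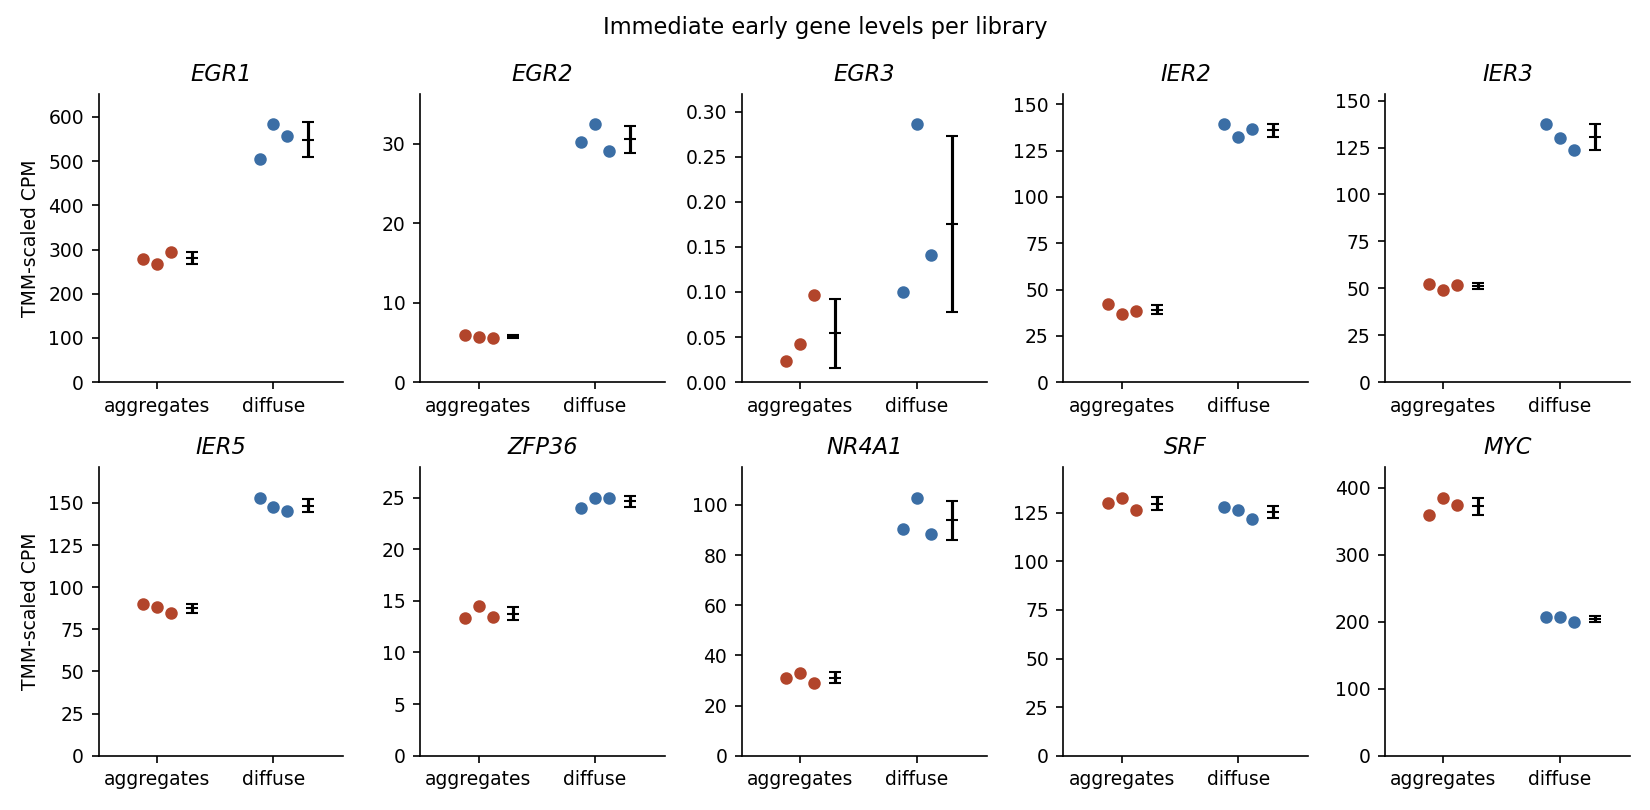
TMM-scaled CPM (y axis, from 0, a scale of its own in each panel) of the 10 members in the 3 aggregate libraries, left, and the 3 diffuse libraries, right; points are libraries and bars mark means ± SD. Aggregate libraries lie below diffuse ones for EGR1, EGR2, IER2, IER3, IER5, ZFP36 and NR4A1 and above them for MYC; those of SRF overlap, and EGR3 stays under 0.3 CPM throughout.

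NR4A1 was also measured by its introns, a readout that its gene count does not give. LeafCutter, which collects introns with a splice site in common into clusters and counts the reads across each, gave clusters for 4 members: EGR2, NR4A1, SRF and MYC. Of their 10 clusters 9 were tested and 2 changed (edgeR diffSpliceDGE, which sets each intron against its own cluster, Simes p per cluster), beside 5.02% of all 35898 tested clusters. Without a single library the members' count was 1 to 2 and that of all clusters 1171 to 1318 (1171 without diffuse library 3), in place of 1802; under a cluster F test they were 3, with a further SRF cluster at an adjusted p of 0.0451, and 2721. In the changed cluster of NR4A1 (169, 251 and 214 reads in aggregate cells, 599, 656 and 588 in diffuse cells; adjusted p = 1.43e-12), alternative 5′ exons are joined to the same downstream exons.

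An exon ending at 52051568 on chromosome 12, annotated as the first exon of the transcripts NR4A1-201 and NR4A1-204, sent out 14, 29 and 15 spliced reads in aggregate cells, against 251, 254 and 222 in diffuse cells. These were 8.28%, 11.6% and 7.01% of the cluster's reads in aggregate cells (exact Clopper-Pearson 95% intervals 4.60 to 13.5, 7.88 to 16.2 and 3.98 to 11.3) and 41.9%, 38.7% and 37.8% in diffuse cells (37.9 to 46.0, 35 to 42.6 and 33.8 to 41.8). No interval of an aggregate library reached one of a diffuse library. Its intron to 52054326 had a log2 fold change of -1.53 relative to the cluster (diffSpliceDGE, adjusted p = 4.12e-13).

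An exon farther upstream, ending at 52041929, sent out 99, 124 and 109 reads in aggregate cells and 171, 139 and 139 in diffuse cells. Its share of the cluster was 53.0 ± 4.92% in aggregate cells and 24.5 ± 3.75% in diffuse cells. Its intron to 52054326 had a relative log2 fold change of 0.96 (adjusted p = 4.72e-08). That exon opens the transcript NR4A1-213 and is an internal exon of transcripts starting farther upstream, so its reads do not mark 1 start site.

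Per 1e6 spliced reads, the downstream first exon had 0.637 ± 0.234 reads in aggregate cells and 9.36 ± 0.963 in diffuse cells, a ratio of 0.0681. The exon ending at 52041929 had 3.70 ± 0.263 in aggregate cells and 5.78 ± 0.847 in diffuse cells, a ratio of 0.639. An exon ending at 52037443, the farthest upstream with counts of this size, had 2.47 ± 0.183 in aggregate cells and 4.47 ± 0.685 in diffuse cells, a ratio of 0.554. Both upstream exons thus also had lower values in every aggregate library than in any diffuse one, with ratios nearer to 1 than that of the downstream first exon; these scaled values carry no test of their own. The reads leaving the exon that ends at 52056159, downstream of the alternative 5′ exons, summed over 3 introns, were 6.55 ± 0.454 in aggregate cells and 18.5 ± 2.73 in diffuse cells, a ratio of 0.354, close to the 0.331 of the gene count. The antisense neighbour AC025259.3, which shares 754 exon bases, had 2, 5 and 5 counts in aggregate cells and 28, 40 and 31 in diffuse cells, few beside the gene's own counts.

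**Figure D2:**
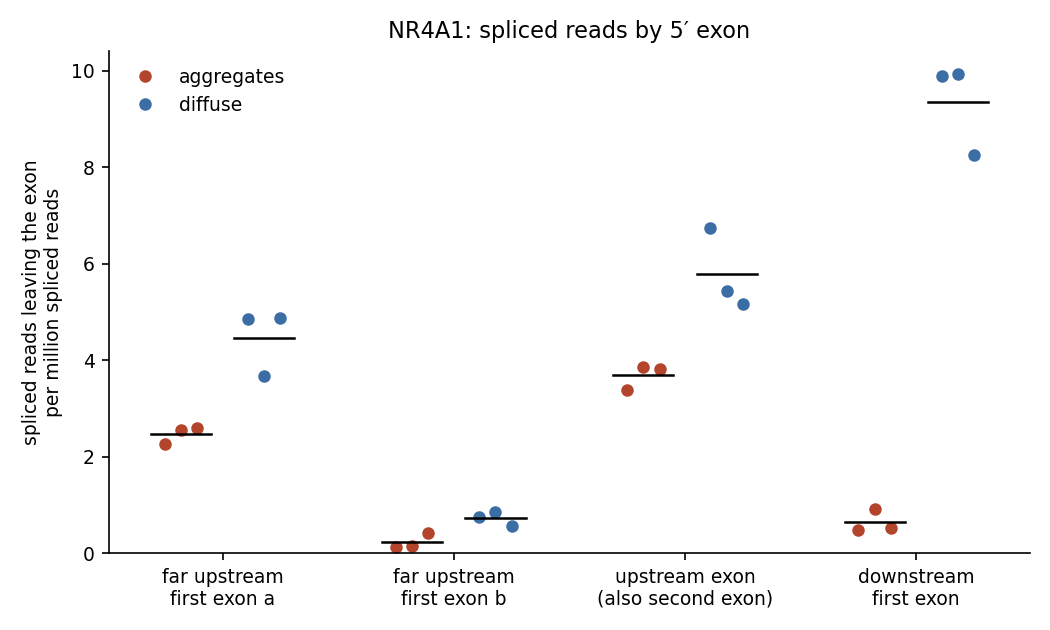
Spliced reads leaving 4 alternative 5′ exons of NR4A1, per 1e6 spliced reads (y axis), in the 3 aggregate libraries, left of each pair, and the 3 diffuse libraries, right; points are libraries and lines mark means. The downstream first exon stands at 0.48 to 0.906 in aggregate cells and 8.25 to 9.93 in diffuse cells, while the upstream exons differ less.

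The IER genes share a name and a rapid induction: IER2 and IER5 are related nuclear proteins, and IER3 is a stress-responsive regulator of apoptosis and ERK signalling. IER2 (ENSG00000160888.6, chromosome 19, 13150415 to 13154908, plus strand) had 42.15, 37.0 and 38.4 CPM in aggregate cells, against 139, 132 and 137 CPM in diffuse cells. Its fold of 0.288 came with the groups well apart (log2 fold change -1.80, SE 0.041, edgeR quasi-likelihood test, adjusted p = 3.64e-58), and 1.71% of tested genes stood lower. IER3 (ENSG00000137331.11, chromosome 6, 30743199 to 30744554, minus strand) had 52.1, 49.1 and 51.7 CPM in aggregate cells, against 137, 130.2 and 124 CPM in diffuse cells. Aggregate libraries of IER3 lay within 3 CPM of each other, below all diffuse ones (log2 fold change -1.36, SE 0.039, adjusted p = 6.23e-51), and 3.89% of tested genes stood lower.

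IER5 (ENSG00000162783.10, chromosome 1, 181088712 to 181092899, plus strand), a target of heat shock factor and a cofactor in that response, had 90.0, 88.0 and 84.6 CPM in aggregate cells, against 153, 147 and 145 CPM in diffuse cells. It had the smallest of the 7 falls among members (0.590 of the diffuse level, log2 fold change -0.76, SE 0.037, 95% interval -0.83 to -0.69, adjusted p = 5.50e-35), without overlap between the groups. Its relative IER5L fell by less: it had 3.67 ± 0.459 CPM in aggregate cells and 5.10 ± 0.279 CPM in diffuse cells (log2 fold change -0.48, SE 0.098, adjusted p = 7.97e-06). Antisense neighbours of IER2 and IER3 had 0 to 2 counts in any library.

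ZFP36, known as tristetraprolin, binds AU-rich elements of short-lived mRNAs and brings the deadenylation machinery to them; its own mRNA is among its targets. The gene (ENSG00000128016.5, chromosome 19, 39406813 to 39409412, plus strand) had 13.4, 14.5 and 13.5 CPM in aggregate cells, against 24.0, 24.95 and 25 CPM in diffuse cells. The groups did not overlap (log2 fold change -0.84, SE 0.055, 95% interval -0.95 to -0.73, adjusted p = 1.37e-25). Of its paralogs, ZFP36L1 rose with 773 ± 5.08 CPM in aggregate cells and 477 ± 2.00 CPM in diffuse cells (log2 fold change 0.70, SE 0.037, adjusted p = 2.59e-32), and ZFP36L2 fell with 37.3 ± 0.655 CPM in aggregate cells and 74.7 ± 3.405 CPM in diffuse cells (log2 fold change -1.0, SE 0.042, adjusted p = 1.16e-39). The paralogs thus moved in opposite directions.

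The AU-rich elements themselves are shown because they are what ZFP36 binds. The 9-base core TTATTTATT was searched on the transcript strand in the 3′ UTR of 1 GENCODE 29 transcript per gene, and occurs in ZFP36, SRF and IER5; capitals mark it, with 10 bases on either side.
ZFP36, chr19:39409196-39409224, plus strand: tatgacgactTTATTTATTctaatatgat
SRF, chr6:43179224-43179252, plus strand: atggcaccacTTATTTATTgttgcctttt
IER5, chr1:181092443-181092471, plus strand: gtgtcttcctTTATTTATTtatttattta

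IER5 has 3 overlapping matches in this stretch, of which the first is shown. The shorter ATTTA, which each nonamer also contains, occurred 10 times in IER5, 6 in IER3, 5 in ZFP36, 4 in MYC, 3 each in NR4A1, SRF and EGR3, 2 in EGR2, 1 in EGR1 and 0 in IER2. Per kilobase of 3′ UTR this was highest in MYC, at 8.40, and ZFP36, at 7.01, against a median of 1.63 over 14424 tested genes. IER3, at 6.64, NR4A1, at 5.39, and IER5, at 3.32, were also above that median, and EGR2, at 1.65, was barely above it. Of these members MYC rose and the others fell. The nonamer stood in 9.21% of those genes; the median log2 fold change was -0.11 with it, where 48.7% fell, and -0.004 without it, where 40.2% fell.

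Among 11 mRNAs known to be bound by ZFP36, 9 were tested, of which 4 fell, 4 rose and 1 did not pass (median log2 fold change 0.10, all tested genes 0.01). Falls made up 37.6% and rises 37.8% of all tested genes. Without IL1B, which passed the filter on low counts through the diffuse libraries alone, 3 of 8 fell. PIM1, a kinase, fell, with 67.5 ± 0.621 CPM in aggregate cells and 191 ± 1.26 CPM in diffuse cells (log2 fold change -1.5, SE 0.037, adjusted p = 8.23e-58), and IL11, a cytokine, fell, with 8.10 ± 0.292 CPM in aggregate cells and 13.2 ± 0.847 CPM in diffuse cells (log2 fold change -0.70, SE 0.068, adjusted p = 3.23e-16). CXCL8, the chemokine interleukin-8, rose, with 80.8 ± 6.79 CPM in aggregate cells and 7.22 ± 1.75 CPM in diffuse cells (log2 fold change 3.48, SE 0.166, adjusted p = 2.07e-05). PLAUR, the urokinase receptor, rose by 0.10 (adjusted p = 0.0115); it did not pass without aggregate library 1 (adjusted p = 0.0638) or without diffuse library 2 (adjusted p = 0.171).

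SRF (ENSG00000112658.7, chromosome 6, 43171299 to 43181507, plus strand), the activator of many of the genes above, had 130.3, 133 and 126 CPM in aggregate cells, against 128, 126 and 122 CPM in diffuse cells. The groups overlapped, and the log2 fold change of 0.05 (SE 0.036, 95% interval -0.02 to 0.12, edgeR quasi-likelihood test) had an adjusted p of 0.215. Under upper-quartile scaling, which moved the median of all genes from 0.01 to 0.06, the value was 0.09 with an adjusted p of 0.011. The interval leaves out a change as large as that of any other tested member.

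Of 6 SRF cofactors 3 fell, 2 rose and 1 did not pass, beside 37.6% of all tested genes that fell and 37.8% that rose. The actin-regulated coactivators fell: MRTFB had 52.2 ± 2.45 CPM in aggregate cells and 111 ± 2.57 CPM in diffuse cells (log2 fold change -1.09, SE 0.039, adjusted p = 1.73e-44), and MRTFA had 69.5 ± 2.64 CPM in aggregate cells and 106.5 ± 0.512 CPM in diffuse cells (log2 fold change -0.61, SE 0.038, adjusted p = 1.01e-27). The ternary complex factors ELK1 and ELK4 rose. ELK1 had 118 ± 3.59 CPM in aggregate cells and 93.9 ± 5.0 CPM in diffuse cells (log2 fold change 0.33, SE 0.038, adjusted p = 3.14e-13), and ELK4 had 86.3 ± 4.07 CPM in aggregate cells and 74.3 ± 1.345 CPM in diffuse cells (log2 fold change 0.22, SE 0.038, adjusted p = 4.90e-07), a rise too small to pass against a fold of 1.2. MYOCD, the muscle coactivator of SRF, is the remaining one counted as a fall; with 6, 4 and 7 counts in aggregate cells, against 59, 52 and 51 in diffuse cells, it passed the filter on low counts through the diffuse libraries alone, and without it 2 of 5 cofactors fell. ELK3, the remaining ternary complex factor, had a log2 fold change of -0.03 and did not pass.

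Splicing of SRF changed in the cluster of its first intron, which had 382, 477 and 370 reads in aggregate cells and 392, 356 and 342 in diffuse cells (diffSpliceDGE, adjusted p = 0.00813). The annotated intron, 43172170 to 43173846 on chromosome 6, made up 99.2 ± 0.604% of the reads in aggregate cells and 97.5 ± 0.704% in diffuse cells. An intron absent from GENCODE 29, 43172452 to 43173846, had 0 reads in all aggregate libraries and 10, 6 and 4 in diffuse libraries, 1.80 ± 0.698% of the cluster. Its 0 of 1229 aggregate reads allows a share of up to 0.244%. The call rests on these few reads: without aggregate library 2 the adjusted p was 0.0528, and without diffuse library 1 it was 0.0565.

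MYC (ENSG00000136997.17, chromosome 8, 127735434 to 127741434, plus strand), a transcription factor that dimerizes with MAX and drives growth and ribosome production, had 359, 385 and 374 CPM in aggregate cells, against 207, 206.5 and 199 CPM in diffuse cells. The lowest aggregate library was well above the highest diffuse one. MYC rose by 0.87 on the log2 scale (SE 0.036, 95% interval 0.80 to 0.94, edgeR quasi-likelihood test, adjusted p = 1.45e-39), a fold of 1.83, beside 37.8% of all tested genes that rose; 8.82% of tested genes had a higher log2 fold change. Its splicing did not pass the test (adjusted p = 1 in both clusters): the acceptor after the intron 127736624 to 127738247 took 71.6 ± 1.27% of its cluster in aggregate cells and 71.5 ± 2.28% in diffuse cells.

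Of 20 known MYC target genes, chiefly of ribosome production, 19 rose, none fell and 1, DKC1, did not pass. Their median log2 fold change was 0.72. Among all tested genes 37.8% rose and 37.6% fell. WDR43 and RRP9, both of the small-subunit processome, rose most. WDR43 had 178 ± 3.83 CPM in aggregate cells and 86.7 ± 1.895 CPM in diffuse cells (log2 fold change 1.04, SE 0.036, adjusted p = 1.90e-45), and RRP9 had 71.4 ± 1.44 CPM in aggregate cells and 35.6 ± 2.935 CPM in diffuse cells (log2 fold change 1.0, SE 0.044, adjusted p = 3.31e-35). In the dimer network of MYC, 5 of 9 genes fell, 3 rose and 1 did not pass (median -0.10); after a GC and length correction 4 fell and 5 rose, with MGA turning from a fall to a rise, and 2 fell against a fold of 1.2. MXD3 and MXI1 fell. MXD3 had 10.7 ± 0.7935 CPM in aggregate cells and 24.0 ± 2.02 CPM in diffuse cells (log2 fold change -1.16, SE 0.061, adjusted p = 1.37e-29). MXI1 had 60.8 ± 1.05 CPM in aggregate cells and 77.55 ± 1.06 CPM in diffuse cells (log2 fold change -0.35, SE 0.039, adjusted p = 7.91e-14). MLX had 34.9 ± 0.843 CPM in aggregate cells and 21.9 ± 1.47 CPM in diffuse cells and MXD1 had 14.7 ± 0.614 CPM in aggregate cells and 9.51 ± 0.5085 CPM in diffuse cells, and both rose (log2 fold change 0.67, SE 0.049, adjusted p = 1.10e-22 for MLX; log2 fold change 0.63, SE 0.065, adjusted p = 5.17e-15 for MXD1). Its paralogs differed: MYCL rose, at 5.21 ± 0.369 CPM in aggregate cells and 3.55 ± 0.567 CPM in diffuse cells, and MYCN was listed at 0.0599 ± 0.0580 CPM in aggregate cells and 0.576 ± 0.0776 CPM in diffuse cells, the aggregate mean being below the limit of detection.

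Of the 10 members, then, 7 fell, against 37.6% of all tested genes, 1 rose, against 37.8%, 1 did not pass and 1 was not tested. Of their 8 listed paralogs 6 fell and 2 rose (median log2 fold change -0.95); without MYCN, which passed the filter on low counts through the diffuse libraries alone, 5 of 7 fell and the median was -0.91. The 9 tested members had a median log2 fold change of -0.97, against 0.01 over all tested genes. The groups of libraries did not overlap for 8 of the 9, as for 76.2% of all tested genes. Aggregate cells were the lower of these for 7 members, as for 38.0% of tested genes, and the higher for MYC, as for 38.2%. Of the members 4 (EGR2, IER2, NR4A1 and IER3) fell more than 2-fold, as did 8.11% of all tested genes. Replicates were tight, with coefficients of variation of 2.14% to 8.36% for the tested members, and the largest adjusted p of the 8 that changed was 1.05e-19.

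Levels were set against each other per length of merged exons. These pool all annotated transcripts, for NR4A1 also retained-intron ones, so the order depends on the length used. In aggregate cells MYC stood highest, at 124 ± 4.29 CPM per kilobase, followed by EGR1 at 89.3 ± 4.39, IER3 at 37.6 ± 1.19, SRF at 30.9 ± 0.768 and IER5 at 20.9 ± 0.647. Below them came IER2 at 12.8 ± 0.865, ZFP36 at 6.85 ± 0.303, NR4A1 at 4.25 ± 0.297, EGR2 at 1.57 ± 0.0528 and EGR3. No neighbours in this order overlapped between libraries. In diffuse cells EGR1 led, at 175 ± 12.6 CPM per kilobase, before IER3 at 96.2 ± 4.99, MYC at 68.1 ± 1.46, IER2 at 44.2 ± 1.16, IER5 at 35.5 ± 0.951 and SRF at 29.9 ± 0.745. NR4A1 at 12.9 ± 1.08 and ZFP36 at 12.3 ± 0.277 overlapped there, and EGR2 at 8.29 ± 0.464 and EGR3 closed the order. MYC thus led in aggregate cells and stood below EGR1 and IER3 in diffuse cells, and SRF stood above IER5 and IER2 in aggregate cells and below both in diffuse cells.

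**Figure D3:**
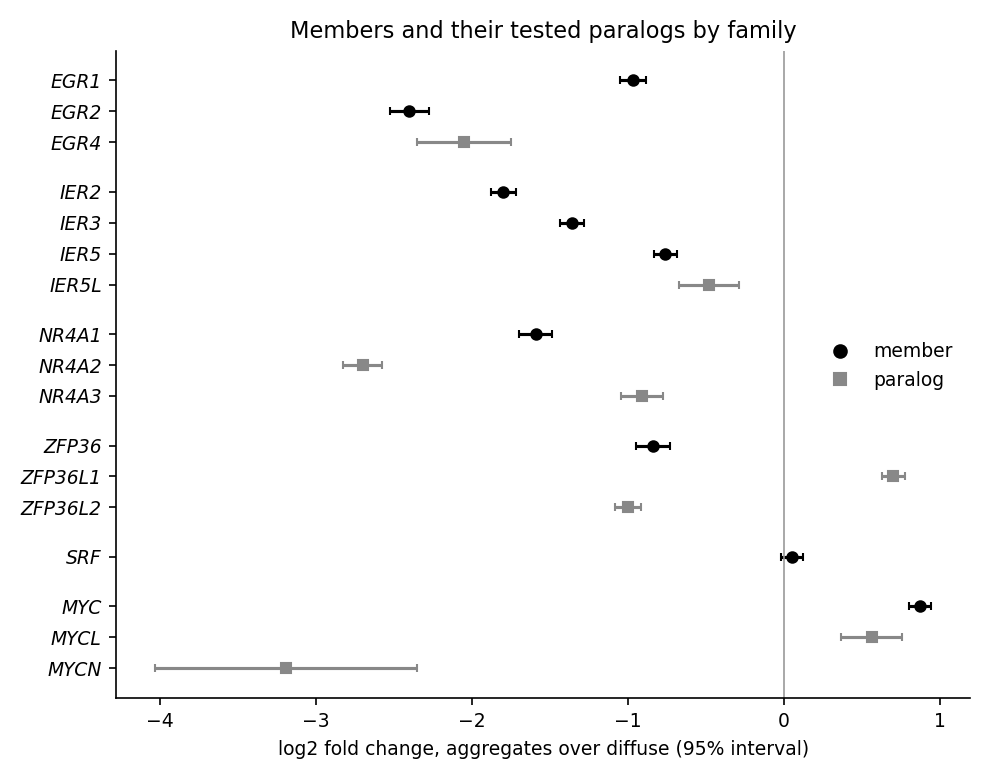
Log2 fold changes, aggregates over diffuse (x axis), of the tested members and their paralogs, by family, with 95% intervals as lines and a mark at 0. Of the tested members only MYC lies above 0 with its interval, the interval of SRF crosses 0, and EGR2 is lowest at -2.40.

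Other immediate early genes were followed as lists. Their counts stand beside 37.6% of all tested genes that fell and 37.8% that rose. Of the 8 AP-1 genes, 7 that code for FOS and JUN proteins and ATF3, a related factor that pairs with JUN, 6 fell, 1 rose and 1 did not pass (median log2 fold change -0.78); 2 rose under upper-quartile scaling and without aggregate library 2. FOSB fell, with 48.1 ± 5.29 CPM in aggregate cells and 106 ± 3.62 CPM in diffuse cells (log2 fold change -1.14, SE 0.058, adjusted p = 6.03e-12), beside FOS (log2 fold change -1.43, SE 0.038, adjusted p = 6.97e-53). FOSL1, which codes for FRA-1 and is induced more slowly, rose, with 83.2 ± 2.74 CPM in aggregate cells and 48.3 ± 2.02 CPM in diffuse cells (log2 fold change 0.78, SE 0.040, adjusted p = 6.15e-33). Of 30 other immediate early genes 18 fell, 9 rose and 3 did not pass (median -0.42); without KLF4 and DUSP4, each past the filter on low counts in 1 group alone, 17 of 28 fell and 8 rose. GADD45B, a stress sensor of the p38 and JNK pathways, fell, with 11.8 ± 0.436 CPM in aggregate cells and 44.8 ± 0.572 CPM in diffuse cells (log2 fold change -1.93, SE 0.052, adjusted p = 1.64e-54), as did HES1, a repressor downstream of Notch, with 41.2 ± 3.01 CPM in aggregate cells and 116 ± 3.44 CPM in diffuse cells (log2 fold change -1.49, SE 0.041, adjusted p = 1.50e-48). PLK2, a polo-like kinase, rose, with 251 ± 9.515 CPM in aggregate cells and 119 ± 2.13 CPM in diffuse cells (log2 fold change 1.07, SE 0.036, adjusted p = 2.27e-46), as did the small GTPase gene GEM, with 32.5 ± 0.798 CPM in aggregate cells and 20.7 ± 0.520 CPM in diffuse cells (log2 fold change 0.65, SE 0.049, adjusted p = 4.22e-22).

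Upstream, of 22 genes from the EGF receptor to ERK and its downstream kinases, 14 fell, 5 rose and 3 did not pass (median -0.13). The shares over all tested genes were 37.6% falling and 37.8% rising. RPS6KA5, which codes for the chromatin kinase MSK1, fell, with 4.08 ± 0.116 CPM in aggregate cells and 6.59 ± 0.0666 CPM in diffuse cells (log2 fold change -0.69, SE 0.088, adjusted p = 2.37e-11). EGFR rose, with 23.3 ± 1.97 CPM in aggregate cells and 11.9 ± 0.188 CPM in diffuse cells (log2 fold change 0.97, SE 0.059, adjusted p = 1.34e-27), as did RPS6KA2 (log2 fold change 0.47, SE 0.054, adjusted p = 3.94e-13). Against a fold of 1.2, 8 of the 14 falls passed. Downstream, of 12 known EGR1 target genes 8 fell, 2 rose and 2 did not pass (median -0.43); 4 rose under upper-quartile scaling, and 7 of 11 fell without PDGFB, past the filter on low counts in diffuse libraries alone. TGFB1, a growth factor, had 125 ± 1.63 CPM in aggregate cells and 212.5 ± 10.25 CPM in diffuse cells (log2 fold change -0.76, SE 0.036, adjusted p = 3.26e-35), and CD44, a hyaluronan receptor, rose, with 394 ± 8.52 CPM in aggregate cells and 305 ± 11.5 CPM in diffuse cells (log2 fold change 0.37, SE 0.036, adjusted p = 2.85e-16). FGF2 rose by 0.27 (adjusted p = 4.98e-06) but did not pass against a fold of 1.2, and THBS1 fell (log2 fold change -2.14, SE 0.039, adjusted p = 1.36e-66).

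**Figure D4:**
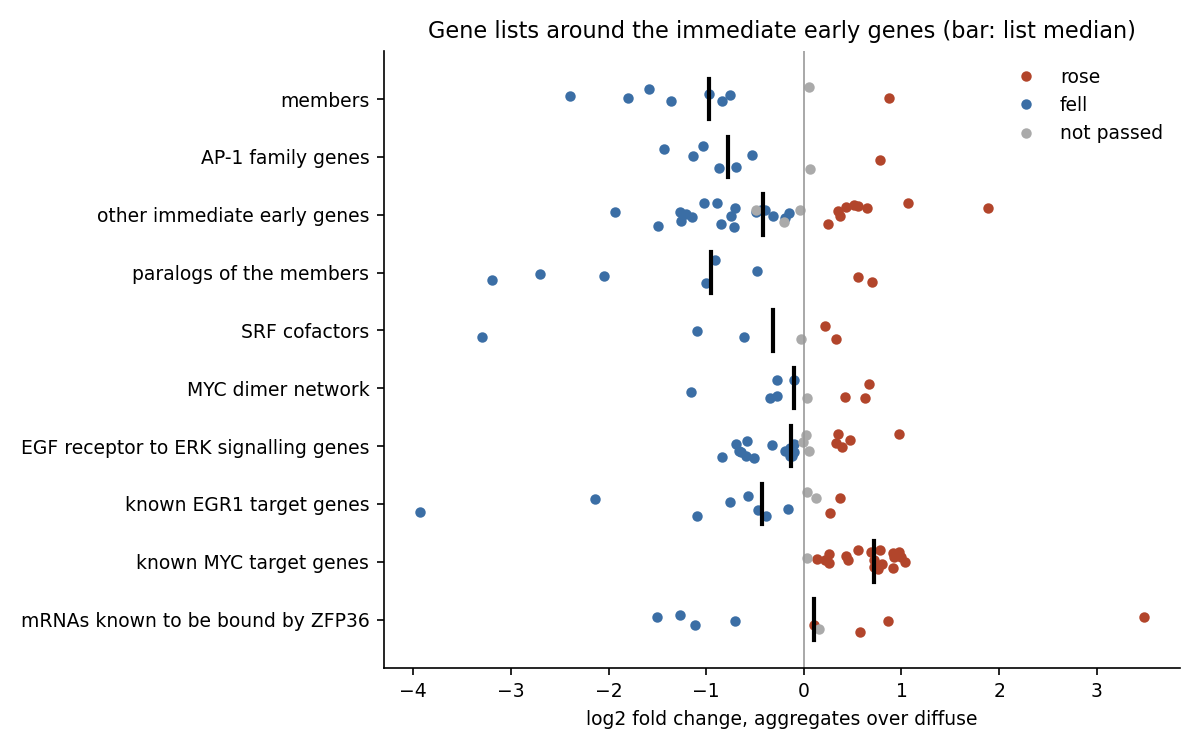
Log2 fold changes, aggregates over diffuse, of every tested gene in the 10 lists on the y axis (the EGR corepressors are not drawn); each point is a gene and a bar marks the list's median. Known MYC targets all lie above 0, and most AP-1 genes, paralogs and EGR1 targets lie below it.

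The 5 genes nearest to the members in pattern, by Euclidean distance of centred log2 CPM over the 6 libraries to the median profile of the tested members among 11589 genes, were CDS1 (distance 0.0435), CDKN1B (0.0632), LIN54 (0.0649), DNAJB14 (0.0691) and PTAR1 (0.0697). Their log2 fold changes were -0.97, -1.01, -0.99, -1.02 and -0.99 in that order. CDKN1B, which codes for the cell cycle inhibitor p27, had 24.8 ± 0.511 CPM in aggregate cells and 49.8 ± 1.95 CPM in diffuse cells. The measure uses the difference between the groups that the members show, and is given as a description.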

How the data were processed

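RNA of 6 libraries, made with polyA selection and a stranded kit, was analysed. The submitters' processing notes name fastp (0.23.2), STAR (2.7.11a) and the build hg38. The deposited values are whole-number counts per gene and counts of spliced reads per LeafCutter intron, not normalized. How genes were counted (program, strand setting, annotation) and which LeafCutter release was run are not given in the sources, so overlapping and antisense genes are uncertain, as are reads shared by paralogs.

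All 6 libraries entered edgeR 4.0.16 (R 4.3.3): genes were filtered by filterByExpr, scaled by TMM and given a robust quasi-likelihood F test, with p adjusted by Benjamini-Hochberg and called at 0.05. Clusters of introns were tested with diffSpliceDGE and Simes p. An intron needed 10 counts summed over libraries, and a cluster 10 in each library. DESeq2 1.42.0, other scalings and filters, a test against a fold of 1.2 (glmTreat), a GC and length correction (mgcv 1.9.3) and a replicate block were alternatives. Both fits were tested on simulated data.

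Members and lists were chosen with earlier results of these data known. From each list, up to 2 rises and 2 falls are named. These are the largest in log2 fold change among changed genes whose mean is 5 CPM or more and whose groups do not overlap. Other paralogs and cofactors stand beside their member, and some further cell type markers are also named. 1 gene that the rule names is not reported here. Libraries held 40279084 to 46863013 gene counts and 25341453 to 32020553 spliced reads. Reads carry no molecular identifiers, so intervals and limits from a count of 0 cover counting error only. Replicates are separate transfections and differed by more than sampling noise.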

Additional observations from a re-analysis of the deposited data

How the results depend on the processing

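Over the genes named by rule and all listed genes, 1 call turned: MGA of the MYC dimer network, at -0.10 in log2 fold change, was at 0.07 (adjusted p = 0.0428) after a GC and length correction and with the replicate block added (adjusted p = 0.0375). Of 126 comparisons of a tested member with an alternative, 125 kept their direction and side of the threshold; the exception was SRF under upper-quartile scaling, which made the number of members that rose 2. Leaving out 1 library gave 7 members that fell and 1 that rose each time, and 12943 to 13310 genes changed, 6479 to 6693 of them lower and 6464 to 6641 higher. Against a fold of 1.2, 4483 genes rose in place of 6741, and 9202 changed in all. Among the alternatives run, EGR3 passed the test only without the filter on low counts. The count of changed intron clusters was 2721 by the cluster F test in place of 1802, and 1171 to 1318 without 1 library (1171 without diffuse library 3); changed clusters of the members numbered 1 to 2 without 1 library, with SRF lost without aggregate library 2 or diffuse library 1. The cause was not tested.

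Replicate numbers were not shown to pair the libraries: deviations of same-numbered libraries correlated at 0.036, 0.083 and 0.06, although each library correlated best with its own number. With the replicate block 13530 genes changed, and 7 members fell and 1 rose. Depth limits EGR3, the EGR2 introns and the unannotated SRF intron.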
